A study of Mus musculus with 8 samples.

Results

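The genes described here encode the co-receptors, adaptors and IRAK kinases through which Toll-like receptor 4 (TLR4) passes on the signal of LPS, a component of the outer membrane of Gram-negative bacteria. They were chosen by name: Cd14, Ly96, Myd88, Tirap, Ticam1, Ticam2, Irak1, Irak2, Irak3 and Irak4. For 9 of these 10 genes a probe set with a single gene symbol was found, 1 probe set per gene, among 19938 named genes in all. For Irak4 no such probe set was found, so its expression is not analysed here and only its promoter was searched. Total RNA of macrophages that had been differentiated in culture from mouse bone marrow was hybridised to 8 Affymetrix gene arrays, 1 sample per array, to find the activation state that each treatment gave. Of the 4 groups with 2 arrays each, the first was untreated cells, the second cells exposed to IFN gamma and LPS together, the third cells exposed to IL4 and IL13, and the last cells exposed to LPS, IL4 and IL13 together, all for 6 h. The treated groups are called IFN-gamma/LPS, IL-4/IL-13 or, for the last, the combination. Doses, mouse strain and the age and sex of the animals are stated in none of the sources used here, and no group had LPS alone or IFN-gamma alone. Whether the arrays of a group stem from separate cultures or mice is not labelled, and p-values therefore reflect sample-to-sample spread that may be technical.

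TLR4 does not bind LPS unaided. CD14, held in the outer leaflet of the membrane, hands LPS to MD-2 (the product of Ly96), which sits on the TLR4 ectodomain and closes the active receptor dimer. From the cell surface TLR4 signals through the adaptor pair TIRAP and MyD88, which nucleates a complex of IRAK kinases and leads to NF-kB and inflammatory cytokines. After CD14-dependent uptake into endosomes it signals through the pair TRAM (Ticam2) and TRIF (Ticam1), which leads to IRF3 and type I interferon. IRAK4 starts the kinase chain, IRAK1 and IRAK2 carry it on to TRAF6, and IRAK-M (Irak3), found mostly in monocytes and macrophages, is known as a brake on it.

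The arrays were much alike in scale, with medians between 6.12 and 6.20 on the log2 scale. The 9 macrophage markers, Cd14 among them, had a median gene level between 12.2 and 12.4 in the 4 groups. Their mean was 11.55 on both IL-4/IL-13 arrays and between 11.95 and 12.0 on the other arrays, and the lowest of them under IL-4/IL-13, Mertk, averaged 9.22 there and 10.73 in untreated cells. Median levels of the marker lists of T cells, B cells, neutrophils, dendritic cells, fibroblasts, erythroid cells and mast cells lay between 4.62 and 7.51, and the arrays came without detection calls, so no gene can be called absent. Among these other markers Ccr7, a receptor gene listed for dendritic cells, averaged 9.10 under IFN-gamma/LPS and 6.17 in untreated cells. Ngp, the highest of the neutrophil list, averaged 9.1 in untreated cells and 8.2 under the combination. The highest of the T cell and B cell lists in untreated cells, Cd4 and Cd79b, averaged 8.2 and 8.1 there. The fibroblast list had a median of 6.67 in untreated cells, 7.17 under IFN-gamma/LPS, 6.83 under IL-4/IL-13 and 7.51 under the combination. The part of these marker differences in the results was not tested. The inflammatory genes Il6, Nos2 and Cxcl9 rose by 8.89 ± 0.14, 7.08 ± 0.10 and 6.98 ± 0.15 under IFN-gamma/LPS and by 6.37 ± 0.14, 6.72 ± 0.10 and 6.29 ± 0.15 under the combination (log2). Retnla, an IL-4 target, rose under IL-4/IL-13 (5.55 ± 0.19). Under the combination Retnla did not rise, and its difference from untreated did not pass (-0.19 ± 0.19, limma adjusted p = 0.425). Arg1, another IL-4 target, rose by 3.45 ± 0.12 under IL-4/IL-13 and by 5.48 ± 0.12 under the combination, which exceeded IL-4/IL-13 by 2.03 ± 0.12. It also rose under IFN-gamma/LPS (0.34 ± 0.12, limma adjusted p = 0.0364). Untreated means of Il6 (3.40), Nos2 (5.67), Retnla (4.68) and Arg1 (5.07) were below the array medians, and that of Cxcl9 (6.22) was near them. None was shown to be above background, so the sizes of these changes are not exact.

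More than 4 of the 9 genes changed in each treatment, but not in 1 direction: in both groups with LPS, Myd88, Ticam1 and Irak2 rose while Ticam2 and Irak1 fell. Each change is a log2 difference of group means ± its limma SE (n = 2 arrays in each group). A gene is said to have risen or fallen at a limma adjusted p, over all 19938 genes, under 0.05. Under IFN-gamma/LPS, 8 of 9 changed against untreated, beside 51.9% of all genes. The 4 that rose (Ly96, Myd88, Ticam1 and Irak2) stand beside 23.6% of all genes, and the 4 that fell (Tirap, Ticam2, Irak1 and Irak3) beside 28.4%.

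Under IL-4/IL-13, 5 of 9 changed, beside 20.2% of all genes. Ticam1 alone rose, beside 7.83% of all genes, and Cd14, Tirap, Irak2 and Irak3 fell, beside 12.3%. These are the arrays on which the mean of the 9 macrophage markers, which include Cd14, was 11.55, and its part in these falls was not tested. Under the combination, 6 of 9 changed against untreated, beside 45.6% of all genes. Cd14, Myd88, Ticam1 and Irak2 rose, beside 20.3%. Ticam2 and Irak1 fell, a share (22.2%) near that of all genes (25.4%). These 3 comparisons share the untreated arrays.

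**Figure D1:**
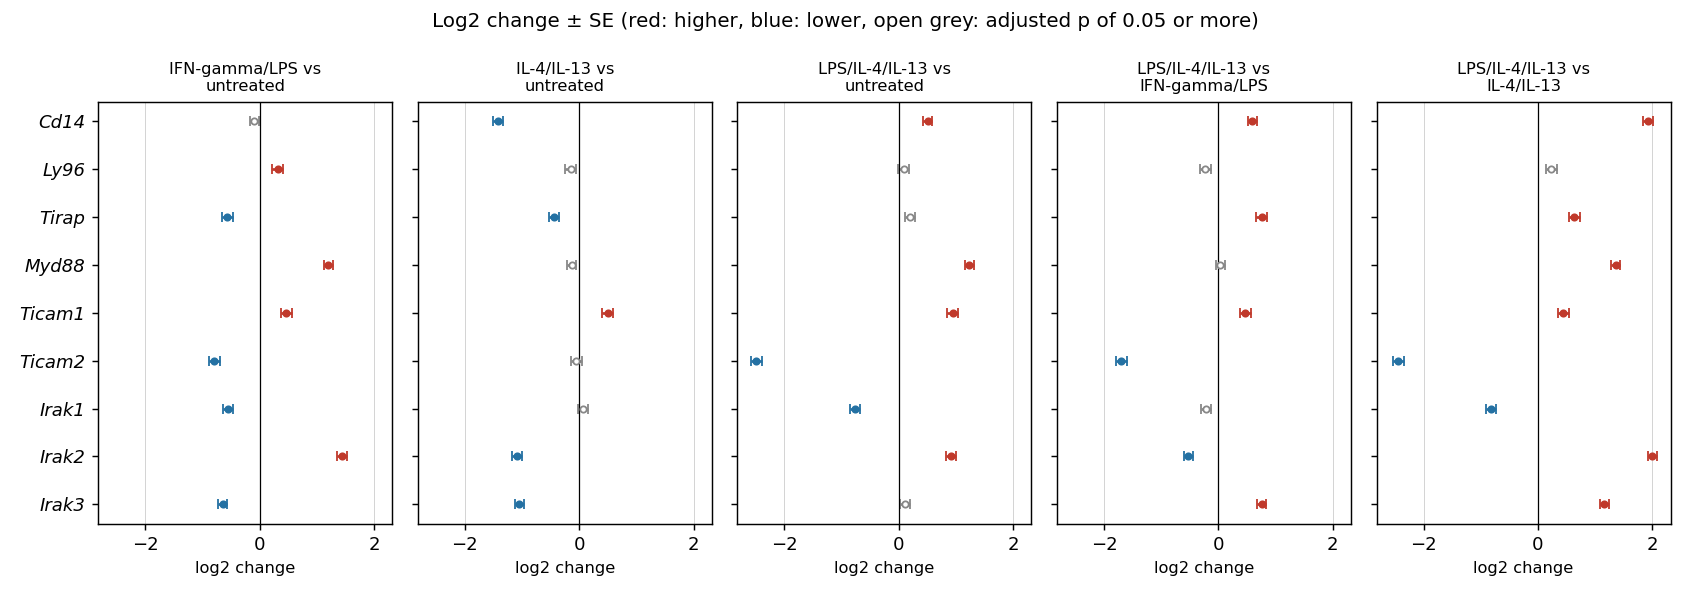
Log2 change ± SE (x axis) of the 9 genes (y axis) in 5 comparisons of 2 arrays against 2, with filled points for an adjusted p under 0.05. Ticam2 lies at -2.49 under the combination against untreated, and Irak2 lies on opposite sides of 0 under IFN-gamma/LPS (1.44) and IL-4/IL-13 (-1.08).

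The co-receptor gene Cd14 read 11.34 and 11.34 on the untreated arrays, 11.31 and 11.19 under IFN-gamma/LPS, 9.93 and 9.91 under IL-4/IL-13, and 11.96 and 11.73 under LPS/IL-4/IL-13 (log2 signal). Both IL-4/IL-13 arrays lay below all others and both arrays of the combination above all others. Cd14 fell 2.68-fold under IL-4/IL-13 (-1.42 ± 0.08, limma adjusted p = 1.99e-07). When LPS was added to the same cytokines it was 3.80-fold higher than with the cytokines alone (1.93 ± 0.08, limma adjusted p = 1.88e-09). The combination also exceeded untreated cells (0.51 ± 0.08, limma adjusted p = 0.000235) and IFN-gamma/LPS (0.60 ± 0.08, limma adjusted p = 0.000201). IFN-gamma/LPS against untreated did not pass (-0.09 ± 0.08, limma adjusted p = 0.368). In these samples of whole cultures, fewer cells that express a gene and less RNA per cell cannot be told apart.

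Ly96, whose product MD-2 holds the lipid of LPS, moved least. Its log2 signal was 12.00 and 12.09 in untreated cells, 12.36 and 12.36 under IFN-gamma/LPS, 12.02 and 11.78 under IL-4/IL-13, and 11.99 and 12.27 under the combination. The IFN-gamma/LPS arrays were above all others, and the other 3 groups overlapped. Its group means spanned 0.46, the narrowest of the 9 genes. The rise under IFN-gamma/LPS was small (0.32 ± 0.09, limma adjusted p = 0.0145), and it did not pass without untreated array 1 (limma adjusted p = 0.113) or with a variance model without a trend (limma adjusted p = 0.0539).

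Tlr4 itself, the receptor that both proteins serve, read 9.60 and 9.67 in untreated cells, 8.80 and 8.68 under IFN-gamma/LPS, 10.10 and 9.99 under IL-4/IL-13, and 10.45 and 10.16 under the combination. It fell under IFN-gamma/LPS (-0.90 ± 0.10, limma adjusted p = 1.04e-05) and rose under the combination (0.67 ± 0.10, limma adjusted p = 0.000153), so that the 2 groups with LPS differed by 1.57 ± 0.10. Its rise under IL-4/IL-13 (0.41 ± 0.10, limma adjusted p = 0.0141) did not pass when either untreated array or either IL-4/IL-13 array was left out, with adjusted p up to 0.134.

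**Figure D2:**
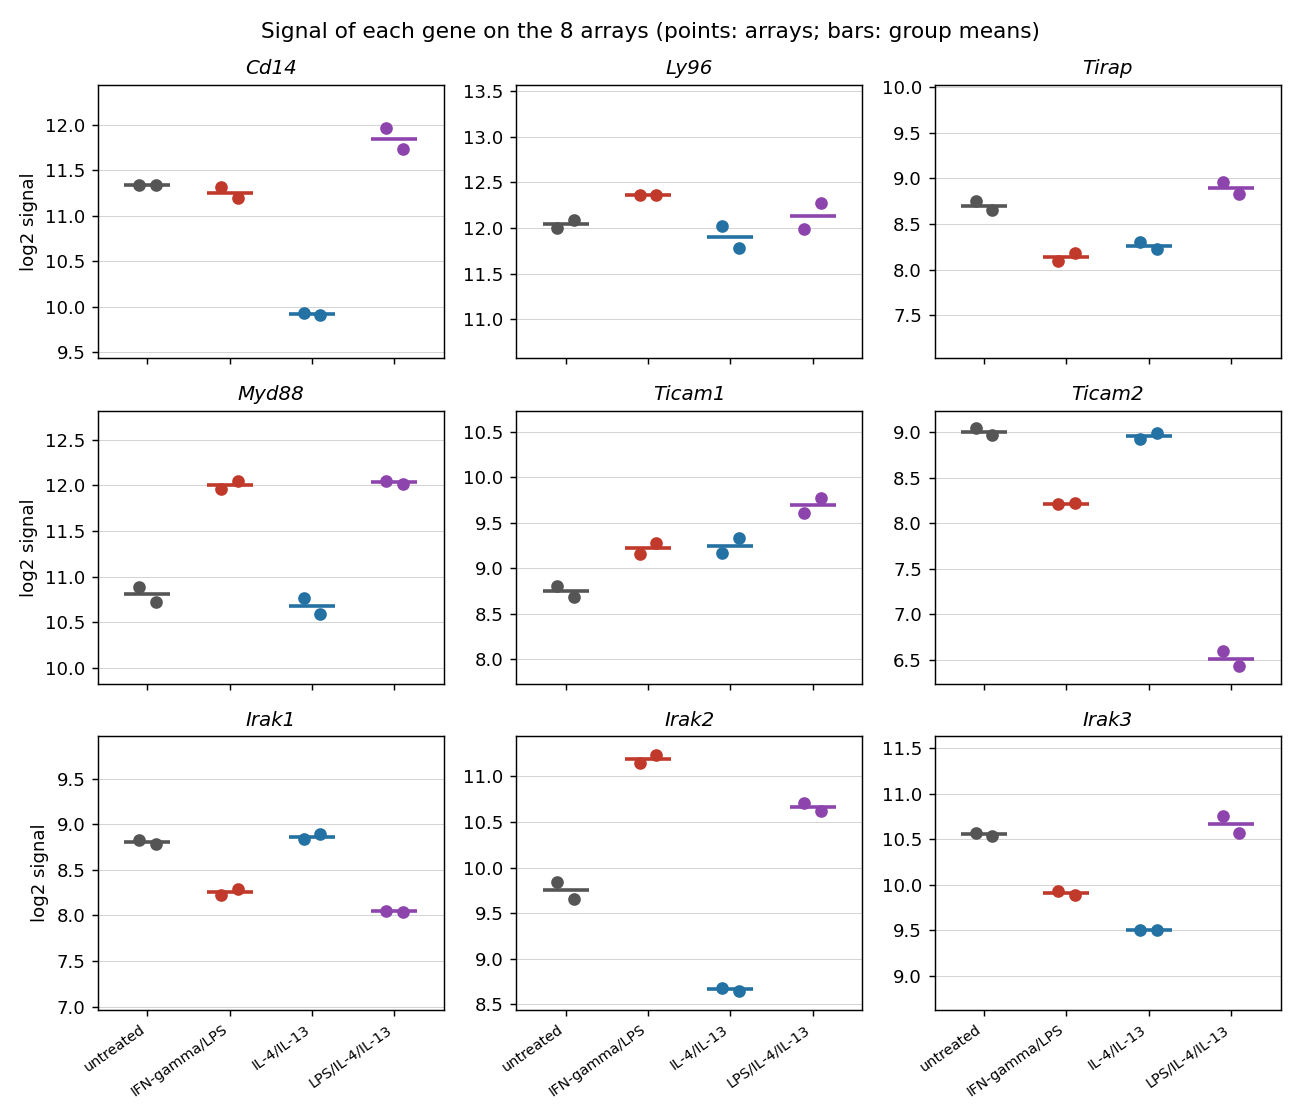
Log2 signal (y axis, a span of 3 in every panel) of each gene on each of the 8 arrays (points) with group means (bars). Ticam2 is near 6.52 under the combination and above 8.2 on every other array, and Irak3 and Tirap under the combination sit near their untreated means.

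Of the adaptors of the cell surface arm, Myd88 rose in both groups with LPS, and Tirap fell under IFN-gamma/LPS and under IL-4/IL-13. Myd88, the hub on which the IRAKs assemble, read 10.89 and 10.72 in untreated cells, 11.96 and 12.05 under IFN-gamma/LPS, 10.76 and 10.59 under IL-4/IL-13, and 12.05 and 12.02 under the combination. All 4 arrays with LPS lay above all 4 without. The rise over untreated was 2.30-fold under IFN-gamma/LPS (1.20 ± 0.08, limma adjusted p = 7.00e-08) and 2.35-fold under the combination (1.23 ± 0.08, limma adjusted p = 6.94e-08). The difference between the 2 groups with LPS was 0.03 ± 0.08, and that of IL-4/IL-13 from untreated was -0.13 ± 0.08, and neither passed (limma adjusted p = 0.884 and 0.271).

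Tirap, the sorting adaptor that brings MyD88 to the receptor at the plasma membrane, read 8.75 and 8.65 in untreated cells, 8.09 and 8.18 under IFN-gamma/LPS, 8.30 and 8.22 under IL-4/IL-13, and 8.96 and 8.83 under the combination. The combination and the untreated arrays were the 4 highest. Tirap fell under IFN-gamma/LPS (-0.57 ± 0.09, limma adjusted p = 0.000272) and under IL-4/IL-13 (-0.44 ± 0.09, limma adjusted p = 0.00573). Under the combination it was at 0.20 ± 0.09 from untreated (limma adjusted p = 0.112), 0.76 ± 0.09 above IFN-gamma/LPS and 0.64 ± 0.09 above IL-4/IL-13 (limma adjusted p = 9.61e-05 and 0.000143). The fall under IL-4/IL-13 did not pass without untreated array 1 (limma adjusted p = 0.0882) or without IL-4/IL-13 array 2 (limma adjusted p = 0.0628). After quantile normalization the combination passed as higher than untreated (0.29, limma adjusted p = 0.0119).

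The 250 bases before the RefSeq start sites (build GRCm38.p6) are shown for Myd88 and Irak2, which rose in both groups with LPS, and for Irak1, which fell in both. They are examples, since Ticam1 also rose in both, and its window was searched but is not shown. Each window is on the minus strand except that of Irak2, and Irak1 has a second start 3 bases away. Capitals mark matches, on either strand, to any of 6 motifs: the kappa-B consensus, the ISRE core (GAAANNGAAA), the GAS element with a spacer of 3 bases (TTCNNNGAA) or of 4 bases (TTCNNNNGAA), AP-1 (TGANTCA) and the PU.1 core (GAGGAAG).
Myd88, chr9:119340019-119340268: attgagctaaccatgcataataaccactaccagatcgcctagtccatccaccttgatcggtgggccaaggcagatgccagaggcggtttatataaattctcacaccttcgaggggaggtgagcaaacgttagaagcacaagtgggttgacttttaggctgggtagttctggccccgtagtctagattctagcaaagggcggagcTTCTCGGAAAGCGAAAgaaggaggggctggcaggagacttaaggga
Irak2, chr6:113638217-113638466: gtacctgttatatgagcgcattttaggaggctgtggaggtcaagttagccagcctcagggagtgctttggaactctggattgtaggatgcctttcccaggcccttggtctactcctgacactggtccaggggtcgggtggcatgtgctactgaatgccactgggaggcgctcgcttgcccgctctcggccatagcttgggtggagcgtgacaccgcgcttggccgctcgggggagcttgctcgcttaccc
Irak1, chrX:74023919-74024168: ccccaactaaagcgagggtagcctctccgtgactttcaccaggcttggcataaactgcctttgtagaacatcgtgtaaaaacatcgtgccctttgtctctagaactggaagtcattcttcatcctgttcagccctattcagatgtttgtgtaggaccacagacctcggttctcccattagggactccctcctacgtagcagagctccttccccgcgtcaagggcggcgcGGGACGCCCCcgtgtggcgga

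The capitals in the Myd88 window are a GAS element of the spacing with 3 bases, TTCTCGGAA, overlapping an ISRE core, GAAAGCGAAA, that ends 30 bases before the start site. Of 32851 windows of this length in the table, 7.02% held the first motif and 2.98% the second. The Irak1 window holds a kappa-B match, GGGACGCCCC, a motif that 7.25% of windows held. The Irak2 window holds no match to any of the 6 motifs, which says only that these letters are not in this stretch. Windows of 7 of the 10 genes were searched. For the listed genes, windows on 1 chromosome were left out, while the shares over all windows include that chromosome. No window of Cd14, Ly96 or Ticam2 was searched. Whether their windows hold any of these motifs is therefore not known here. Beyond these matches, Ticam1 held 1 PU.1 core (10.6% of windows), and the windows of Tirap, Irak3 and Irak4 held no match. The 4-base GAS spacing (5.85% of windows) and AP-1 (6.75%) were found in none of the windows searched for these genes. A match is a description of the letters, and binding was not measured.

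In the endosomal arm Ticam1 rose and Ticam2 fell in both groups with LPS, and the combination gave the most extreme level of each. Ticam1, which encodes TRIF, read 8.81 and 8.69 in untreated cells, 9.16 and 9.28 under IFN-gamma/LPS, 9.17 and 9.33 under IL-4/IL-13, and 9.61 and 9.77 under the combination. The untreated arrays were lowest, those of the combination highest, and the other 2 groups overlapped in between. Ticam1 rose under IFN-gamma/LPS (0.47 ± 0.10, limma adjusted p = 0.00147), under IL-4/IL-13 (0.50 ± 0.10, limma adjusted p = 0.00319) and most under the combination (0.94 ± 0.10, 1.92-fold, limma adjusted p = 5.50e-06). The combination exceeded IFN-gamma/LPS (0.47 ± 0.10, limma adjusted p = 0.00426) and IL-4/IL-13 (0.44 ± 0.10, limma adjusted p = 0.00298). Without untreated array 2 or IL-4/IL-13 array 2 the rise under IL-4/IL-13 did not pass (limma adjusted p = 0.0512 and 0.0531).

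Ticam2, which encodes TRAM, the bridge between TLR4 and TRIF, read 9.04 and 8.97 in untreated cells, 8.21 and 8.22 under IFN-gamma/LPS, 8.92 and 8.99 under IL-4/IL-13, and 6.60 and 6.43 under the combination. The combination stood far below every other array, IFN-gamma/LPS came next, and IL-4/IL-13 overlapped with untreated cells. Ticam2 fell 5.62-fold under the combination (-2.49 ± 0.10, limma adjusted p = 7.64e-10) and 1.73-fold under IFN-gamma/LPS (-0.79 ± 0.10, limma adjusted p = 1.81e-05). The combination was 3.25-fold below IFN-gamma/LPS (-1.70 ± 0.10, limma adjusted p = 1.38e-07) and 5.43-fold below IL-4/IL-13 (-2.44 ± 0.10, limma adjusted p = 1.09e-09). IL-4/IL-13 without LPS was at -0.05 ± 0.10 from untreated (limma adjusted p = 0.743), a value that turned to 0.03 after quantile normalization. Its mean under the combination, 6.52, was near the array medians, and whether it was above background is not known.

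Among the IRAK kinases, Irak1 fell and Irak2 rose in both groups with LPS, and Irak2 and Irak3 fell under IL-4/IL-13. Irak1 read 8.83 and 8.78 in untreated cells, 8.22 and 8.29 under IFN-gamma/LPS, 8.84 and 8.89 under IL-4/IL-13, and 8.05 and 8.04 under the combination. All 4 arrays with LPS lay below all 4 without. The fall was 1.46-fold under IFN-gamma/LPS (-0.55 ± 0.09, limma adjusted p = 0.000172) and 1.69-fold under the combination (-0.76 ± 0.09, limma adjusted p = 1.27e-05). The gap between these 2 groups, -0.21 ± 0.09, did not pass (limma adjusted p = 0.129), though it did after quantile normalization (limma adjusted p = 0.0348). IL-4/IL-13 was 0.06 ± 0.09 from untreated (limma adjusted p = 0.657).

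Irak2, the kinase that sustains late TLR signalling, had the widest span of group means, 2.53. It read 9.84 and 9.66 in untreated cells, 11.15 and 11.23 under IFN-gamma/LPS, 8.68 and 8.65 under IL-4/IL-13, and 10.71 and 10.62 under the combination. The 4 groups did not overlap, in the order IFN-gamma/LPS, combination, untreated and IL-4/IL-13, and each neighbouring pair in that order differed. Irak2 rose 2.71-fold under IFN-gamma/LPS (1.44 ± 0.08, limma adjusted p = 2.20e-08) and 1.89-fold under the combination (0.92 ± 0.08, limma adjusted p = 1.72e-06), and fell 2.12-fold under IL-4/IL-13 (-1.09 ± 0.08, limma adjusted p = 2.32e-06). The combination stayed below IFN-gamma/LPS (-0.53 ± 0.08, limma adjusted p = 0.000643) and was 4-fold above IL-4/IL-13 (2.00 ± 0.08, limma adjusted p = 1.71e-09).

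Irak3, the IRAK-M gene, read 10.57 and 10.54 in untreated cells, 9.93 and 9.89 under IFN-gamma/LPS, 9.51 and 9.50 under IL-4/IL-13, and 10.76 and 10.57 under the combination. Like Tirap, it was lower under IFN-gamma/LPS and under IL-4/IL-13, while the combination and the untreated arrays overlapped. Irak3 fell 1.56-fold under IFN-gamma/LPS (-0.65 ± 0.08, limma adjusted p = 2.26e-05) and 2.07-fold under IL-4/IL-13 (-1.05 ± 0.08, limma adjusted p = 2.21e-06). Under the combination it was 0.11 ± 0.08 from untreated (limma adjusted p = 0.285), 0.76 ± 0.08 above IFN-gamma/LPS (limma adjusted p = 2.72e-05) and 1.16 ± 0.08 above IL-4/IL-13 (limma adjusted p = 1.70e-07). Without combination array 2 the first of these passed (0.21, limma adjusted p = 0.046).

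By their labels, the combination and IL-4/IL-13 differ in LPS alone, though doses are not stated. Of the 6 comparisons, the one between these groups had the largest median absolute change of the 9 genes, 1.16, beside 0.21 for all genes. Here 8 of 9 changed, beside 36.7% of all genes. Cd14, Myd88, Tirap, Ticam1, Irak2 and Irak3 rose, beside 14.1% of all genes. Ticam2 and Irak1 fell, a share (22.2%) near that of all genes (22.6%). The remaining gene, Ly96, was at 0.23 ± 0.09 (limma adjusted p = 0.0805), and passed after quantile normalization, after median centring, without the dim genes and without IL-4/IL-13 array 1 or combination array 1. A change of at least 2-fold was called for 5 of 9 genes (Cd14, Myd88, Irak2, Irak3 and Ticam2), beside 11.2% of all genes.

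Between the 2 groups with LPS, which differ in both IFN-gamma and IL-4/IL-13, 6 of 9 genes changed, beside 19.7% of all genes. Cd14, Tirap, Ticam1 and Irak3 were higher under the combination, beside 12.1%, and Ticam2 and Irak2 lower, beside 7.62%. Only Ticam2 of the 9 differed at least 2-fold, beside 3.31% of all genes, and its change was lower than that of all but 0.47% of genes. Between IFN-gamma/LPS and IL-4/IL-13, 7 of 9 genes differed, beside 41.6% of all genes. Cd14, Ly96, Myd88, Irak2 and Irak3 were higher, beside 15.5%. Ticam2 and Irak1 were lower, a share (22.2%) near that of all genes (26.1%). Irak2 showed the widest gap there, 2.53 ± 0.08 or 5.76-fold. At least 2-fold there were 3 of 9 (Cd14, Myd88 and Irak2), beside 15.2% of all genes. Against untreated, 2 of 9 genes passed with at least 2-fold under IFN-gamma/LPS (Myd88 and Irak2), beside 17% of all genes. The same limit left 3 under IL-4/IL-13 (Cd14, Irak2 and Irak3), beside 2.44%, and 2 under the combination (Myd88 and Ticam2), beside 13.9%.

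**Figure D3:**
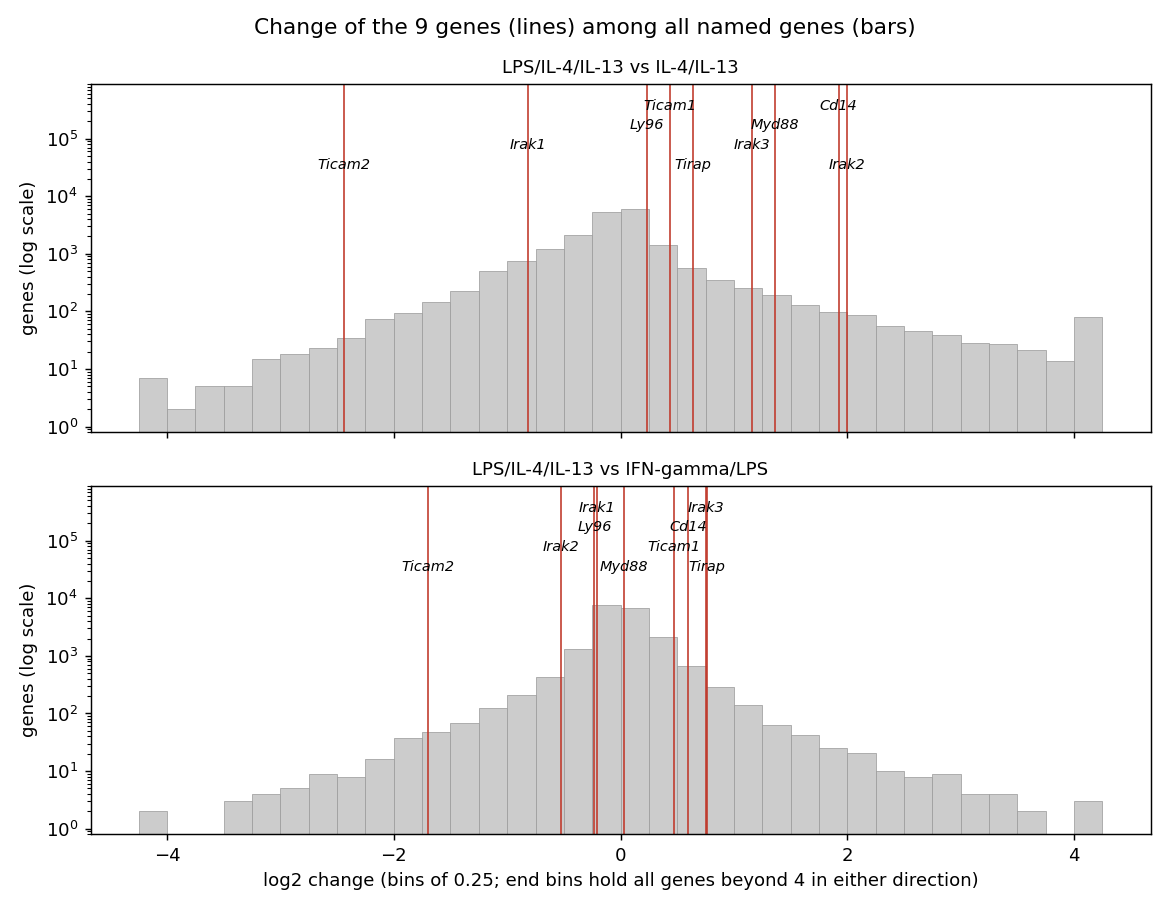
Number of genes (y axis, log scale) by log2 change (x axis) of the combination against IL-4/IL-13 (top) and against IFN-gamma/LPS (bottom), with the 9 genes as lines. Ticam2 lies far to the left in both (-2.44 and -1.70), and Irak2 lies at 2.00 in the top panel and -0.53 in the bottom one.

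Other genes of the pathway were read from 3 lists. Of 14 receptor partners and chaperones, 10 fell and 3 rose under IFN-gamma/LPS, beside 28.4% and 23.6% of all genes, with a median of -0.46 beside 0.11 for all genes. The share that rose is near that of all genes, here and under the combination. Scimp, a membrane adaptor of TLRs in macrophages, rose (4.97 ± 0.11) from 5.73 and 5.49 on the untreated arrays, levels below the array medians and not shown to be above background, so its changes against untreated are not exact. Cnpy3, a chaperone that TLRs need to reach the surface, fell most (-1.99 ± 0.10), followed by Tlr4 and Cnpy4 (-0.88 ± 0.10). Cnpy4 averaged 6.5 there, near the array medians, and whether it was above background is not known. Under the combination 7 fell and 3 rose, beside 25.4% and 20.3% of all genes (median -0.15, beside 0.09), again with Scimp (5.91 ± 0.11) and Cnpy3 (-1.95 ± 0.10) at the ends. With a variance model without a trend 4 fell in place of 7. Under IL-4/IL-13, 4 fell and 3 rose, beside 12.3% and 7.83% of all genes (median -0.11, beside 0.07). Scimp rose (3.08 ± 0.11), and Cd180 (-0.75 ± 0.06), a TLR4 relative, and Pik3ap1 (-0.74 ± 0.06) fell. Without any 1 of the untreated or IL-4/IL-13 arrays, 1 rose in place of 3.

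Of 19 measured genes downstream of the IRAKs and TRIF, 9 rose and 6 fell under IFN-gamma/LPS, beside 23.6% and 28.4% of all genes (median 0.06, beside 0.11). The share that fell is near that of all genes. The ubiquitin ligase gene Peli1 (2.89 ± 0.10), the interferon regulator Irf7 (2.49 ± 0.08) and the kinase gene Ikbke (1.42 ± 0.09) rose, while Peli2 fell (-1.84 ± 0.12). Peli2 averaged 6.31 there and 6.2 under the combination, near the array medians. Whether these levels were above background is not known, so the sizes of its falls with LPS are not exact. The combination gave 8 that rose and 6 that fell, beside 20.3% and 25.4% of all genes (median 0.05, beside 0.09), with Irf7 at 2.57 ± 0.08, Peli1 at 2.31 ± 0.10, Ikbke at 1.28 ± 0.09 and Peli2 at -1.99 ± 0.12. Under IL-4/IL-13, 2 rose and 6 fell, beside 7.83% and 12.3% of all genes (median -0.18, beside 0.07), Irf7 rising (1.33 ± 0.08) and Peli2 (-0.98 ± 0.12), Ikbke (-0.88 ± 0.09) and Peli1 (-0.73 ± 0.10) falling. Peli1 and Ikbke thus rose with LPS and fell with IL-4/IL-13, as Irak2 did.

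Of 14 measured inhibitors of TLR signalling, 5 rose and 4 fell under IFN-gamma/LPS, beside 23.6% and 28.4% of all genes (median 0.00, beside 0.11), and the share that fell is near that of all genes. The A20 gene Tnfaip3 rose (4.20 ± 0.09), as did Tank (2.18 ± 0.08) and Zc3h12a, whose product degrades cytokine mRNAs, and the lipid phosphatase gene Inpp5d fell (-3.05 ± 0.09). In this comparison 2 fell in place of 4 after quantile normalization, without untreated array 1 or without IFN-gamma/LPS array 2. The combination gave 6 that rose and 3 that fell, beside 20.3% and 25.4% of all genes (median 0.14, beside 0.09), led by Tnfaip3 (4.09 ± 0.09), Zc3h12a (2.75 ± 0.09) and Inpp5d (-2.49 ± 0.09). There too the share that fell is near that of all genes. IL-4/IL-13 gave 3 that rose and 4 that fell, beside 7.83% and 12.3% of all genes (median -0.10, beside 0.07), with Dok2 (1.02 ± 0.09) and Zc3h12a (1.02 ± 0.09) up and Inpp5d (-0.53 ± 0.09) down, and without untreated array 1 the genes that fell numbered 2. Zc3h12a was also higher under the combination than under IFN-gamma/LPS (1.25 ± 0.09), the largest difference of this list between the 2 groups with LPS.

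Set against IFN-gamma/LPS, the combination had 7 receptor partners and chaperones higher and 1 lower, 0 downstream genes higher and 2 lower, and 5 inhibitors higher and 2 lower, beside 12.1% of all genes higher and 7.62% lower. The share of receptor partners and chaperones that were lower is near that of all genes. The 7 became 3 when the 4 arrays compared were fitted alone and 4 without IFN-gamma/LPS array 1, and the downstream genes became 2 higher and 5 lower without combination array 2. The 2 downstream genes lower became 4 after quantile normalization, without the dim genes and in the crossed replicate block, and 1 without the variance trend, with the 4 arrays fitted alone and without IFN-gamma/LPS array 1. Cd36, a scavenger receptor gene and TLR partner, was higher (0.70 ± 0.07), and Ptpn6, which encodes the phosphatase SHP-1, was lower (-0.66 ± 0.07). Set against IL-4/IL-13, the combination had 4 receptor partners and chaperones higher and 5 lower, 9 downstream genes higher and 5 lower, and 6 inhibitors higher and 4 lower, beside 14.1% of all genes higher and 22.6% lower. The share of downstream genes that were lower is near that of all genes. Pik3ap1, an adaptor gene that links TLRs to PI3K, was higher there (1.06 ± 0.06).

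**Figure D4:**
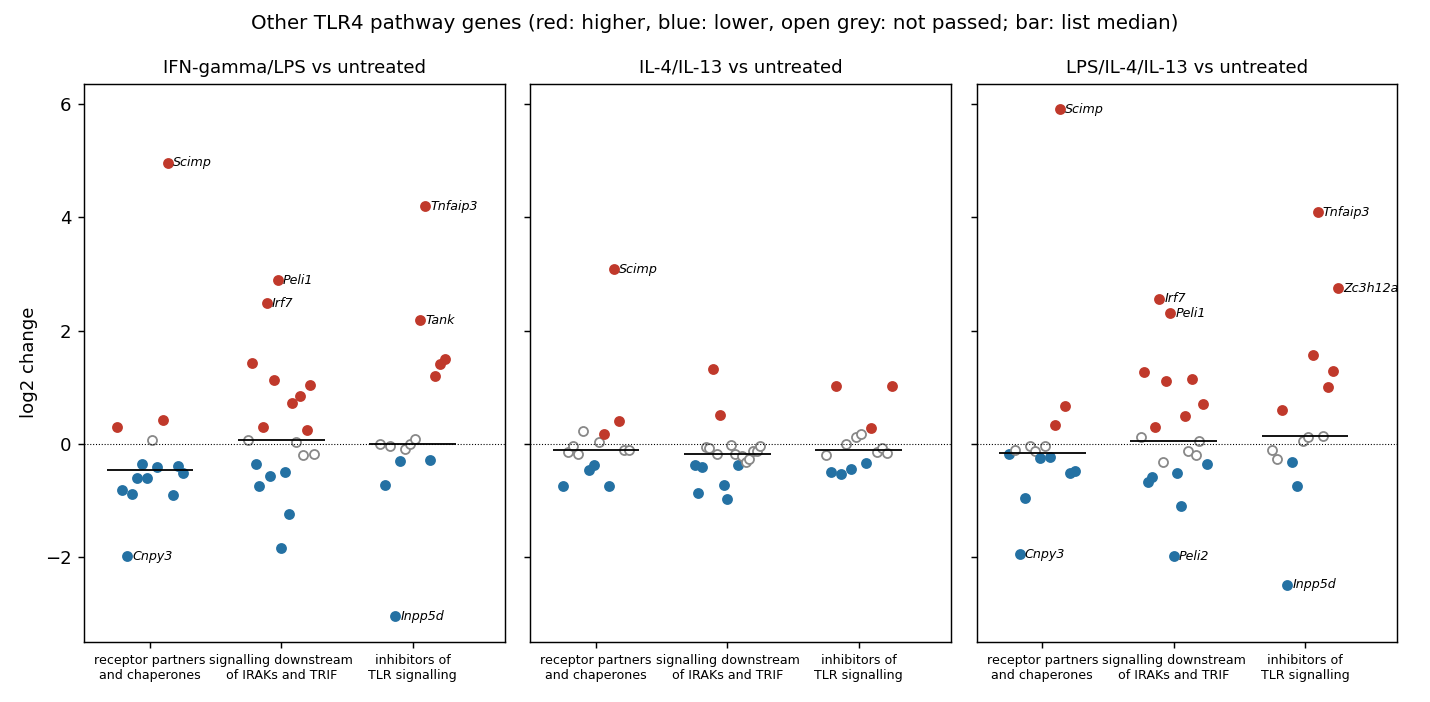
Log2 change against untreated (y axis) of each gene (points) of the 3 pathway lists (x axis) in the 3 treated groups, with the list median as a bar and open points for genes that did not pass. Scimp is highest in all 3 panels (4.97, 3.08 and 5.91), and Inpp5d is lowest in both panels with LPS (-3.05 and -2.49).

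For the 5 genes whose group means spanned at least 1, the 3 genes with the nearest profile were found by the distance between centred log2 values over the 8 arrays. Predicted genes, Riken and other clone names, small RNAs and olfactory receptor genes were left out of this search. Ist1, Clcn6 and Dync1i2 were nearest to Myd88 (distances 0.18, 0.19 and 0.24, r over 0.99 for each). Notch1, Ikbke and Cdk14 were nearest to Irak2 (0.25, 0.45 and 0.51), Notch1 reading 9.74, 11.08, 8.47 and 10.65 as means of the 4 groups, in the order of the array values above. Fnip2, Sema4d and Slc25a24 were nearest to Irak3 (0.25, 0.35 and 0.36), and Kansl1l, Tspan13 and Ankrd28 to Cd14 (0.33, 0.52 and 0.55). Among the genes searched, Ticam2 had no profile as near as these first ones, with Nlrp1c-ps, Uprt and Pgm2l1 at 0.57, 0.58 and 0.61. Uprt showed means of 11.17, 10.06, 10.78 and 8.75 in the same order, the lowest again under the combination. These likenesses are descriptions over 8 arrays that share 4 group means.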

How the data were processed

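The deposited table holds log2 signal per probe set and array. The labels name the column a MAS5 signal of a gene array, but values from 1.46 to 13.71 are on a log2 scale, read from the values. The authors' background correction and normalization are stated in none of the sources used here. Of 35556 probe sets, 21789 had 1 symbol in the platform annotation, 1621 several and 12146 none, and several or none were left out. Where a gene had several probe sets, that of the highest mean over the 8 arrays was used. All 4 groups entered 1 limma 3.58.1 fit (R 4.3.3, lmFit, eBayes with a mean-variance trend, 4 residual and 7.55 prior degrees of freedom), with Benjamini-Hochberg adjustment over 19938 genes for each of 6 comparisons. The fit was also run on simulated data, the outcome of which is not reported here and is used for no result. Precision rests on 2 arrays per group. Promoter motifs were searched with Python 3.11.15.

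The members, lists and the naming rule were chosen with earlier results of these data known. The rule names all 9 measured genes, Tlr4, the 5 treatment reporters, up to 4 called genes with the largest change per pathway list and comparison, up to 2 uncalled ones (none is named here), and the 3 nearest profiles. Ccr7, Mertk, Ngp, Cd4 and Cd79b, of the marker lists, were named after their values were seen. Alternatives were quantile normalization, median centring, a replicate block, a fit of only the 4 arrays compared, leaving out dim genes (below the 40th percentile), other variance models, mean over probe sets, a 2-fold limit and leaving out each array.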

Additional observations from a re-analysis of the deposited data

How the results depend on the processing

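The 54 changes of the 9 genes were refitted under 17 alternatives, and 896 of 918 refits kept direction and side of the threshold. In 6 the call was lost, in 9 one was gained, and 7 changed sign, all of these at changes that did not pass either way. In many of these refits the log2 change could not differ from the main fit, so only the side of the threshold was open. This held for other variance models, leaving out dim genes, fitting only the 4 arrays compared, a replicate block and means over probe sets. Leaving out an array of a group not compared likewise could not alter the change. After quantile normalization Tirap (0.0366) and Ticam1 (0.0041) between IFN-gamma/LPS and IL-4/IL-13, and Ticam2 (0.0325) under IL-4/IL-13 turned sign. With each array left out in turn, Ly96 under the combination against untreated ran from -0.055 to 0.225, Myd88 between the groups with LPS from -0.015 to 0.075, and Ticam1 between IFN-gamma/LPS and IL-4/IL-13 from -0.11 to 0.05. Genes higher under IL-4/IL-13 numbered 0 to 1 in those fits (0 without untreated array 2 or IL-4/IL-13 array 2). With a change of at least 2-fold, genes higher against untreated numbered 2 under IFN-gamma/LPS, 0 under IL-4/IL-13 and 1 under the combination, and genes lower numbered 0 under IFN-gamma/LPS and 1 under the combination. By the same limit the combination had 0 higher and 1 lower against IFN-gamma/LPS and 1 lower against IL-4/IL-13, and IFN-gamma/LPS had 3 higher and 0 lower beside IL-4/IL-13. Over all genes, IL-4/IL-13 against untreated had 1561 higher and 2459 lower, 2455 higher with the 4 arrays compared fitted alone, and as few as 806 higher and 1257 lower without untreated array 1. Without that array IFN-gamma/LPS had 2936 higher (4701 with it) and the combination 2602 (4042). The combination had 2407 genes above IFN-gamma/LPS, 1488 with those 4 arrays fitted alone and 1558 without IFN-gamma/LPS array 1. The cause of these differences was not tested, beyond the stricter limit itself. Samples of one replicate number share only that number: correlations of their deviations between groups ran from -0.36 to 0.22. A replicate block changed none of the 54 calls. Such a block could not alter the log2 changes (Ticam2 at -2.49 under the combination), since each group has 1 array of each number. A block with the numbers of the IFN-gamma/LPS arrays crossed, added after the data were seen, likewise gave 4 higher and 4 lower genes under IFN-gamma/LPS. No scaling moved the median of all genes by over 0.1. The arrays came without detection calls or scan details, so signal over background and batches could not be checked.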
